A study of Mus musculus with 34 samples.

Results

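Oxidative phosphorylation in the inner mitochondrial membrane is carried out by 5 multi-subunit complexes and cytochrome c, and the genes of their nuclear-encoded subunits are described here over 10 groups of mouse cells. Members were all genes whose single symbol in the probe annotation begins with Nduf, Uqcr, Cox4 to Cox8 or Atp5, or is Sdha, Sdhb, Sdhc, Sdhd, Cycs or Cyc1, each read on its brightest probe set. The rule found 73 genes among the 8251 genes measured. They comprised 31 genes of complex I, 4 of complex II, 8 of complex III, 15 of complex IV, 14 of complex V and the 1 gene of somatic cytochrome c, Cycs. Complex I was measured through Ndufa1, Ndufa10, Ndufa12, Ndufa13, Ndufa2, Ndufa3, Ndufa5, Ndufa6, Ndufa7, Ndufa8, Ndufa9, Ndufab1, Ndufb10, Ndufb11, Ndufb2, Ndufb3, Ndufb5, Ndufb6, Ndufb7, Ndufb8, Ndufb9, Ndufc1, Ndufc2, Ndufs4, Ndufv3, Ndufaf1, Ndufaf4, Ndufs1, Ndufs3, Ndufv1 and Ndufv2, which include assembly factors named with the same prefix. Complex II was measured through Sdha, Sdhb, Sdhc and Sdhd, and complex III through Uqcr10, Uqcr11, Uqcrb, Uqcrh, Uqcrq, Cyc1, Uqcrc1 and Uqcrc2. Complex IV was measured through Cox7a2l, Cox6a2, Cox6b2, Cox7a1, Cox8b, Cox8c, Cox4i1, Cox5a, Cox5b, Cox6a1, Cox6b1, Cox6c, Cox7a2, Cox7b and Cox8a, and complex V through Atp5a1, Atp5c1, Atp5d, Atp5e, Atp5g1, Atp5g2, Atp5j2, Atp5k, Atp5l, Atp5md, Atp5mpl, Atp5j, Atp5o and Atp5pb. Genes encoded by mitochondrial DNA do not carry these symbols. A further 10 probe sets that match the rule but carry several symbols were left out.

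The respiratory chain passes electrons from NADH (complex I) and succinate (complex II) through ubiquinone to complex III, then through cytochrome c to complex IV, which reduces oxygen. Complexes I, III and IV pump protons, and ATP synthase (complex V) uses the returning protons to make ATP. Cells of the early embryo and pluripotent cells in culture differ in how far they draw on this route and on glycolysis, and germ cells enter their sex-specific programmes in the embryonic gonad.

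The study profiled 6 groups of pluripotent or germ cells and 4 groups of somatic cells on Affymetrix arrays that carry 12488 probe sets. Embryonic germ cells (EGC, n = 3 arrays) were male lines started from primordial germ cells (PGC) of E12.5 (E is embryonic day) and grown in LIF and serum. PGC were sorted as Oct4/GFP-positive cells from female E13.5 (n = 3), male E13.5 (n = 3) and mixed-sex E11.5 embryos (n = 4). Embryonic stem cells (ESC, n = 2) were male and were grown in LIF and serum, and inner cell masses (ICM, n = 3) were isolated by immunosurgery from E3.5 blastocysts of both sexes. Haematopoietic stem or precursor cells (HSC, n = 2) were side population cells sorted as Lin- CD34- and as c-Kit+ Sca-1+ from the bone marrow of 8-week male mice. Neural stem or precursor cells (NSC, n = 2) were neurospheres from the sub-ventricular zone of 8-week mice of both sexes, grown in EGF. Embryonic fibroblasts (MEF, n = 6) came from E13.5 embryos and were cultured in serum. Somatic cells of the gonad and mesonephros (SGM, n = 4) were the Oct4/GFP-negative cells of E11.5, of mixed sex. All groups were C57Bl/6 except the ICM, which came from C57Bl/6 x C3H F1 crosses in replicates 2 and 3 and from a further cross to CD1 in replicate 1. No group carried a treatment or a mutation, and the labels used here tie no array to a named animal or culture, so p-values measure only the spread between these arrays.

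The 6 pluripotency genes averaged 9.99 to 11.3 on the log2 scale in the EGC, PGC, ESC and ICM groups and 5.42 to 7.07 in the somatic groups. The 6 germ cell genes averaged 8.33 in female E13.5, 7.85 in male E13.5 and 9.01 in E11.5 PGC, beside 8.16 in ESC, 8.21 in ICM, 6.49 in EGC and 5.74 to 7.21 in the somatic groups, so on this list the female E13.5 arrays overlapped the ESC and ICM arrays and the male E13.5 arrays lay below them. Ddx4 among them read 6.33 in female and 5.30 in male E13.5 PGC, 6.41 in ESC and 3.51 in EGC. Dppa3 read 10.8 in female and 11.4 in male E13.5 PGC, against 9.33 in ESC and 8.24 in EGC. Dazl read 7.59 and 7.11, against 6.92 and 5.92. Kit and Tfap2c read lower in both sexes than in ESC, and Prdm1 read 7.14 and 6.53 against 7.05 in ESC. The 5 trophectoderm genes averaged 8.17 in ICM (6.73 to 9.03 over its arrays) and 6.32 in ESC, and Eomes read 9.27 in ICM and 5.67 in ESC. SGM arrays carried erythroid genes at 11.0 and fibroblast genes at 11.8. The 4 measured neural stem cell genes averaged 11.0 in NSC. In HSC the 4 measured haematopoietic stem cell genes averaged 8.43, beside 8.30 for the macrophage list. Of these 4 genes in HSC, Mllt3 read 10.6, Gata2 10.6, Meis1 6.79 and Ptprc 5.68. Ptprc read 5.10 to 5.48 in the other groups, and Mllt3 and Gata2 had their highest means in HSC. Arrays of NSC and HSC stood apart on control probe sets: Gapdh at its 3′ end averaged 8.73 in HSC and 8.35 in NSC, against 12.6 to 13.9 in the other groups, and the probe set for the opposite strand read high in these groups and low elsewhere. Group levels, ranges and the comparisons that use these arrays are therefore also given without them. In bulk samples such as these, fewer cells of a type and less RNA per cell cannot be told apart.

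Levels are log2 intensities after robust multi-array averaging (RMA), and they are compared between groups for the same gene only. To set genes side by side, each gene was centred on its mean over the 10 group means. The median centred level of the 73 genes was highest in NSC, at 0.26 ± 0.17 (SD, n = 2), and in male E13.5 PGC, at 0.23 ± 0.01 (SD, n = 3), followed by female E13.5 PGC at 0.18 ± 0.09 (SD, n = 3). It was lowest in MEF, at -0.27 ± 0.18 (SD, n = 6), and in HSC, at -0.21 ± 0.08 (SD, n = 2). ICM, E11.5 PGC, EGC, SGM and ESC lay between, at -0.01, -0.04, -0.05, -0.07 and -0.12. The 3 female E13.5 arrays lay between 0.08 and 0.24 and the 3 male arrays between 0.22 and 0.25, whereas the 4 E11.5 arrays lay between -0.12 and 0.04, with no overlap between the ages. Neighbours in the order of all groups differed by less than the pooled SD between replicates of 0.105, except female E13.5 PGC and ICM. The order of NSC and both E13.5 PGC groups at the top is therefore not resolved. Nor is that of HSC and MEF at the bottom, or of neighbours from ICM to ESC. Male E13.5 PGC held the highest group mean for 25 of the 73 genes (34.2%, against 14.7% of all genes), and NSC for 23 (31.5%, against 12.9%). HSC held the lowest mean for 21 (28.8%, against 13.51%) and MEF for 15 (20.5%, against 19.8%). With NSC and HSC left out of the centring, the median level was 0.25 ± 0.03 in male and 0.16 ± 0.08 in female E13.5 PGC (SD, n = 3 each) and -0.26 ± 0.16 in MEF (SD, n = 6). Male E13.5 PGC then held the highest mean for 28 genes (38.4%, against 22.8% of all genes), and MEF the lowest for 24 (32.9%, against 24.0%).

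**Figure D1:**
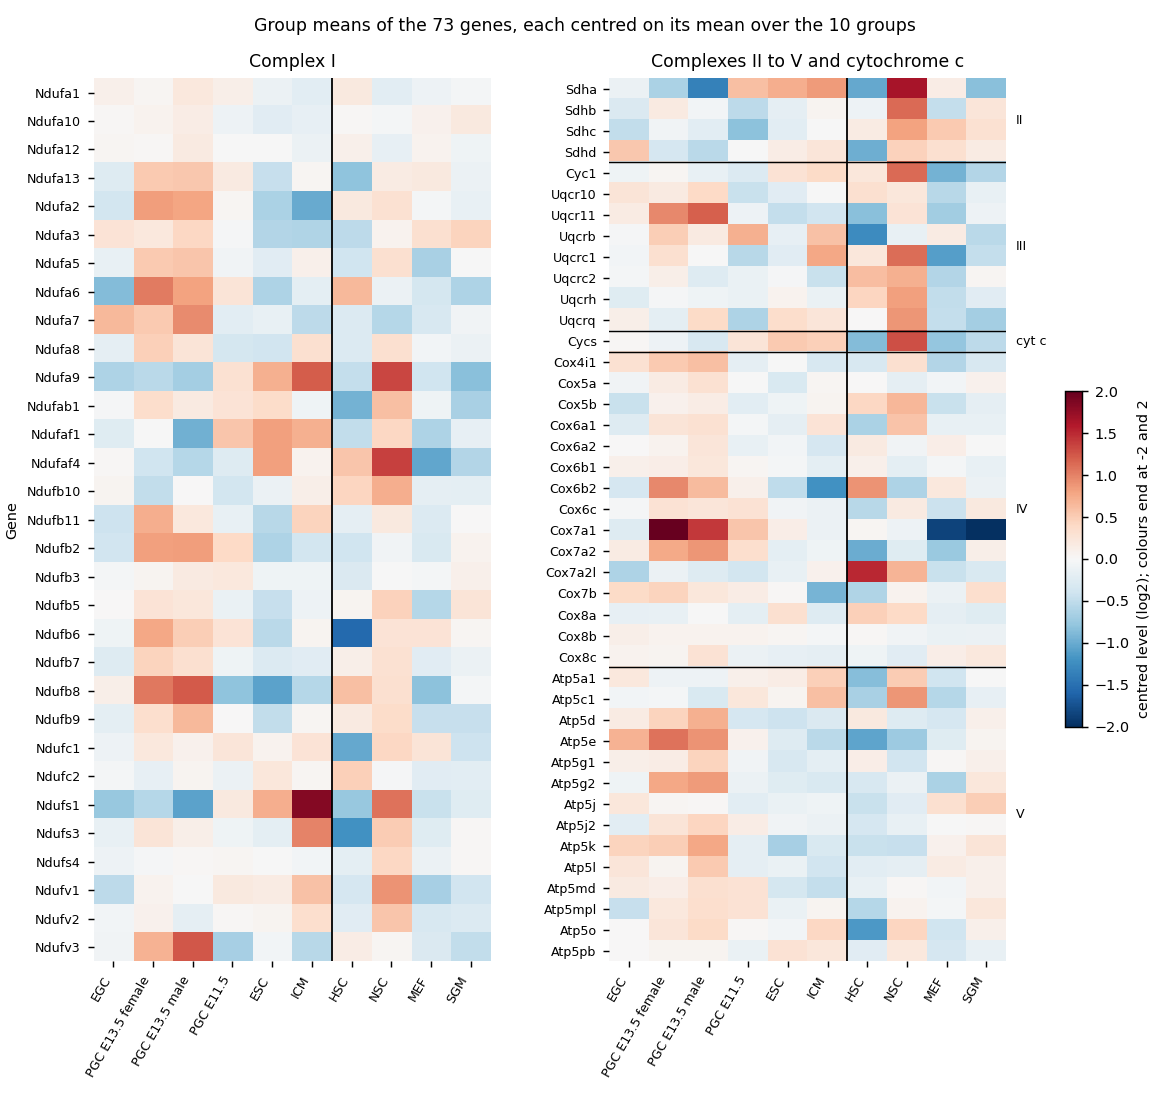
Heat map of the 73 genes (rows, by complex) in the 10 groups (columns), where colour is the group mean in log2 units minus the gene's mean over the groups. Columns of E13.5 PGC are mostly red, at medians of 0.18 in females and 0.23 in males, while the MEF column is mostly blue at -0.27 and Sdha, Ndufs1 and Ndufa9 are blue in both E13.5 PGC columns.

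The complexes did not move as a block, on levels centred over all 10 groups. Complex II stood at 0.97 in NSC but at -0.42 in HSC, -0.40 in male E13.5 PGC, -0.26 in E11.5 PGC and -0.20 in both EGC and female E13.5 PGC. Complex III was lowest in the embryonic somatic groups, at -0.59 in MEF and -0.34 in SGM, and highest in NSC at 0.73. Complex V was highest in male E13.5 PGC at 0.42 and lowest in HSC at -0.46. Complex IV had its extremes at 0.27 in male E13.5 PGC and at -0.26 in MEF. Complex I stood at 0.31 in NSC, 0.25 in female and 0.23 in male E13.5 PGC, -0.20 in HSC and -0.24 in MEF.

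**Figure D2:**
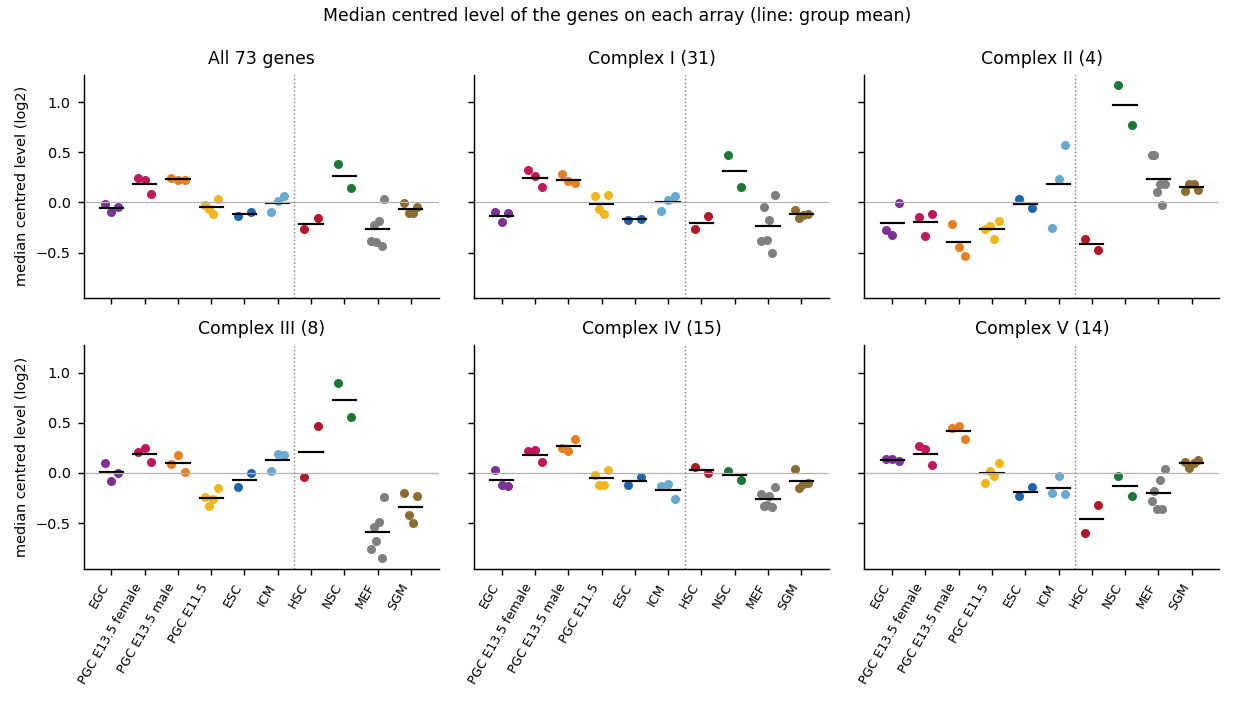
Median centred level (log2) of all 73 genes and of each complex on every array (points), with group means as lines and the number of genes in parentheses. NSC stands highest for complex II at 0.97 and complex III at 0.73, and male E13.5 PGC for complex V at 0.42.

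Across the 10 groups the genes varied about as much as other genes: the median range of group means was 1.35 log2 units for the 73 genes and 1.30 for all genes. Ranges over 2 log2 units were found for 15 of the 73 (20.5%, against 29.4% of all genes), and 6 genes ranged by under 0.5. Without NSC and HSC the median range was 1.02 for the 73 genes and 0.96 for all genes, and 6 of the 73 ranged over 2 (8.22%, against 19.1% of all genes). The widest range, 4.20, belonged to Cox7a1, the complex IV isoform typical of heart and skeletal muscle. It read 7.11, 6.92 and 6.48 in female E13.5 PGC, 6.07, 6.15 and 6.01 in male E13.5 PGC and 5.24, 4.80, 5.18 and 5.63 in E11.5 PGC. In the other pluripotent cells it read 4.40, 4.43 and 4.37 in EGC, 4.53 and 5.06 in ESC and 4.30, 4.45 and 4.86 in ICM. In somatic cells it read 4.74 and 4.65 in HSC, 4.56 and 4.55 in NSC, a lowest, median and highest of 2.49, 2.77 and 3.11 in MEF and 2.88, 2.45, 2.50 and 2.72 in SGM. All 18 pluripotent and germ cell arrays lay above all 10 MEF and SGM arrays, and HSC and NSC lay within the range of the pluripotent arrays. The striated muscle marker list averaged 7.24 in female and 7.29 in male E13.5 PGC and 7.20 in E11.5 PGC, against 8.33 in MEF and 7.53 in SGM. Myog, one of these markers, read 8.47 in female and 8.63 in male E13.5 PGC, against 8.12 in MEF and 8.30 in SGM. It also read 8.30 in E11.5 PGC and 8.29 in EGC. Acta1 read 7.66 in female and 7.65 in male E13.5 PGC, against 10.9 in MEF and 7.66 in SGM. Actc1 read 7.02 and 6.89, against 10.3 and 8.15. None of Acta1, Actc1, Des, Myl1 and Tnnc1 exceeded both MEF and SGM in either sex. The part of muscle markers in the Cox7a1 signal was not tested.

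Next in range came Sdha (3.00), the flavoprotein that oxidises succinate in complex II, and Ndufs1 (2.91), the largest iron-sulphur core subunit of complex I. Sdha averaged 9.33 ± 0.21 in NSC (SD, n = 2) and 6.33 ± 0.26 in male E13.5 PGC (SD, n = 3), its highest and lowest groups, and without NSC and HSC its range was 2.21, with ICM highest at 8.54. Ndufs1 averaged 11.41 ± 0.50 in ICM (SD, n = 3) and 8.49 ± 0.38 in male E13.5 PGC (SD, n = 3). Ndufaf4, an assembly factor of complex I, followed with a range of 2.40 between NSC (7.99 on both arrays) and MEF (median 5.58), and of 1.87 without NSC and HSC. Ndufb6 and Ndufb8, accessory subunits of the membrane arm of complex I, ranged by 2.32 and 2.31. Ndufb6 was lowest in HSC, at 8.17 and 8.65, where no array of another group read below 9.39, and its range was 1.30 without NSC and HSC. Ndufb8 was highest in male E13.5 PGC. The ranges of Cox7a1, Ndufs1 and Ndufb8 do not involve NSC or HSC.

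**Figure D3:**
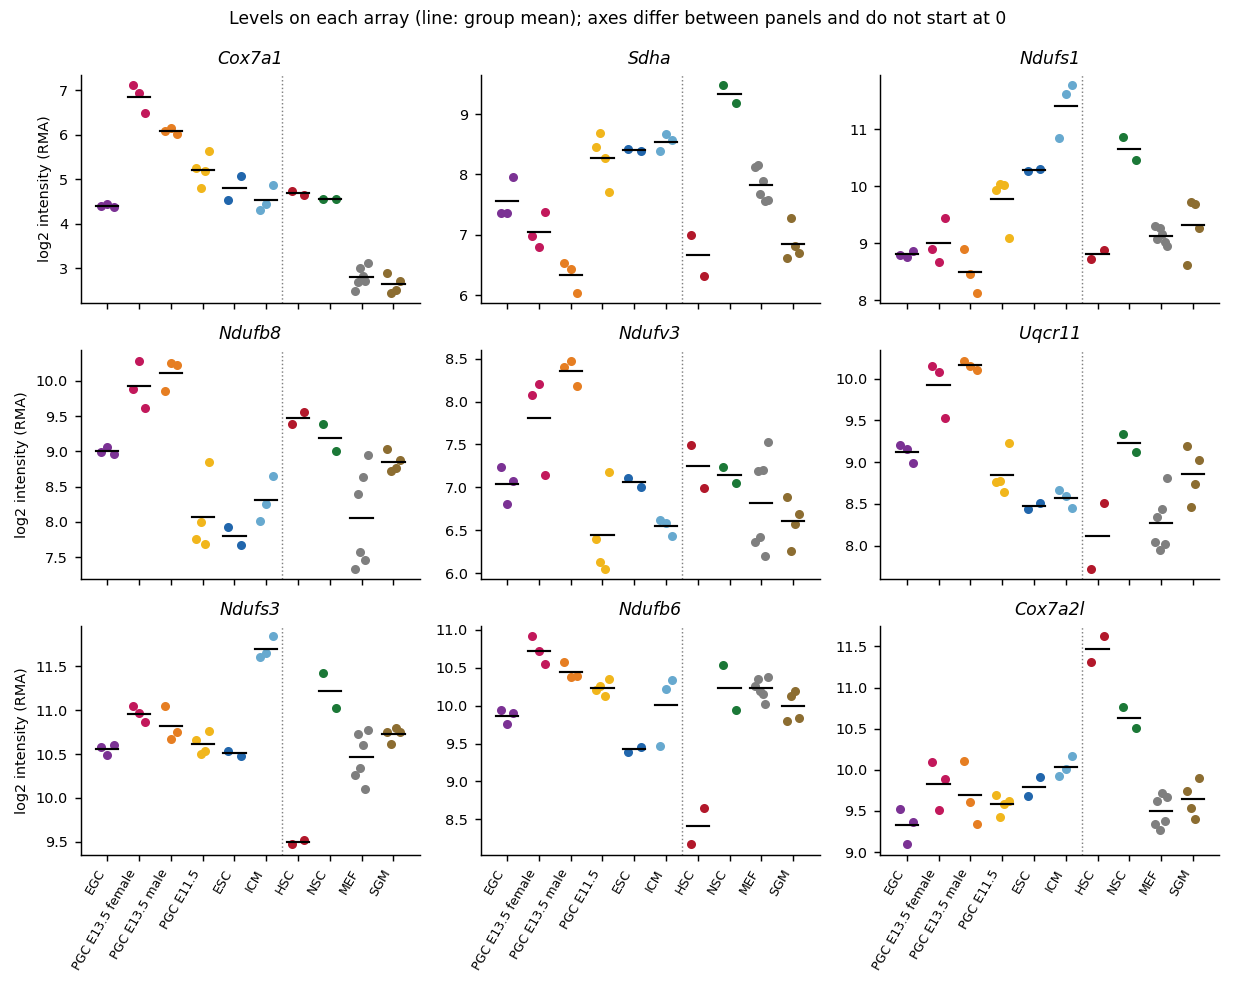
Level (RMA log2 intensity) of 9 genes on every array, with the group mean as a line, in panels whose axes differ and do not start at 0. Cox7a1, Ndufb8, Ndufv3 and Uqcr11 are high in E13.5 PGC, Sdha and Ndufs1 are low there, Ndufs3 stands out in ICM, and Ndufb6 (low) and Cox7a2l (high) stand out in HSC.

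Germ cells were compared between E13.5 and E11.5, the interval in which they take the female or the male path. Differences were tested with limma across all 8251 genes, and a gene is said to have risen or fallen where the adjusted p (Benjamini-Hochberg) was under 0.05. Where a count under another setting is printed without the share of all genes, more calls may hold for all genes alike. In female PGC 28 of the 73 genes rose (38.4%, against 16.3% of all genes tested) and 4 fell (5.48%, against 15.2%), with a median difference of 0.23 against 0.09 over all genes. In male PGC 35 rose (47.9%, against 31.7% of all genes) and 9 fell (12.3%, against 20.7%), with a median of 0.32 against 0.15. These comparisons use the same E11.5 arrays, so a call in both sexes is not a second, independent observation.

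The risers came from each of the 5 complexes. In females they numbered 14 of 31 in complex I, 2 of 4 in complex II, 4 of 8 in complex III, 4 of 15 in complex IV and 4 of 14 in complex V. In males they numbered 14, 2, 4, 7 and 8. Those that rose in both sexes were Ndufa2, Ndufa5, Ndufa6, Ndufa7, Ndufa8, Ndufa13, Ndufb2, Ndufb5, Ndufb7, Ndufb8 and Ndufv3, all accessory subunits of complex I; Sdhb and Sdhc of complex II; Uqcr10, Uqcr11 and Uqcrc1 of complex III; Cox4i1, Cox6a1 and Cox7a1 of complex IV; and Atp5d, Atp5e, Atp5g2 and Atp5k of ATP synthase. A call in 1 sex alone does not show that the sexes differ. Genes called in females alone were Cox6b2, Cyc1, Ndufb6, Ndufb11 and Ndufs3. In males alone 12 genes were called higher, among them 4 of complex V (Atp5g1, Atp5l, Atp5o, Atp5pb, Cox5a, Cox6a2, Cox7a2, Cox8c, Ndufa3, Ndufa10, Ndufb9 and Uqcrq).

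The largest rise was that of Ndufb8. It read 9.88, 10.29 and 9.62 in female and 9.86, 10.25 and 10.23 in male E13.5 PGC, against 7.76, 8.00, 7.69 and 8.84 at E11.5. Every E13.5 array lay above every E11.5 array. The difference was 1.86 ± 0.30 in females (SE, 3.63-fold, limma adjusted p = 2.65e-05) and 2.04 ± 0.30 in males (SE, 4.11-fold, limma adjusted p = 6.08e-06).

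Ndufv3, an accessory subunit of the flavoprotein part of complex I, read 8.07, 8.21 and 7.14 in female and 8.40, 8.48 and 8.18 in male E13.5 PGC, against 6.39, 6.13, 6.05 and 7.17 at E11.5. Male arrays cleared all E11.5 arrays, whereas the lowest female array overlapped the highest E11.5 array, replicate 4. The male difference was 1.91 ± 0.28 (SE, 3.76-fold, limma adjusted p = 7.00e-06). Uqcr11, a small subunit of complex III, read 10.15, 10.08 and 9.53 in female and 10.22, 10.15 and 10.11 in male E13.5 PGC, against 8.77, 8.77, 8.64 and 9.23 at E11.5. It rose without overlap by 1.07 ± 0.20 in females and 1.31 ± 0.20 in males (SE, limma adjusted p = 1.45e-04 and 9.62e-06).

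Cox7a1 rose by 1.63 ± 0.17 in females (SE, 3.09-fold, limma adjusted p = 9.47e-08) and by 0.87 ± 0.17 in males, with no overlap with E11.5 on the array values given above. Atp5e, the epsilon subunit of the F1 part of ATP synthase, read 10.35, 10.16 and 10.14 in female PGC, against 9.37, 9.33, 9.14 and 9.01 at E11.5, a difference of 1.00 ± 0.21 (SE, limma adjusted p = 6.09e-04). Ndufa7, an accessory subunit of complex I, read 12.37, 12.33 and 12.38 in male PGC, against 11.18, 10.96, 10.99 and 11.63 at E11.5, a difference of 1.17 ± 0.15 (SE, limma adjusted p = 1.51e-06). Neither gene's arrays overlapped.

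The 4 genes that fell in both sexes were Sdha, Ndufs1, Ndufa9 and Ndufaf1. Sdha read 6.98, 6.80 and 7.37 in female and 6.53, 6.43 and 6.04 in male E13.5 PGC, against 8.45, 8.69, 8.27 and 7.71 at E11.5. All E13.5 arrays lay below all E11.5 arrays, and the differences were -1.23 ± 0.21 in females and -1.95 ± 0.21 in males (SE, limma adjusted p = 7.43e-05 and 1.55e-07). Its partner in the catalytic head of complex II, the iron-sulphur protein Sdhb, rose by 0.69 ± 0.17 in females and 0.46 ± 0.17 in males. Of the membrane anchors, Sdhc rose by 0.75 ± 0.12 and 0.61 ± 0.12 and Sdhd fell in males by 0.54, with a difference of -0.32 ± 0.20 in females that did not pass (SE throughout).

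Ndufs1 read 8.90, 8.67 and 9.45 in female and 8.90, 8.46 and 8.13 in male E13.5 PGC, against 9.93, 10.04, 10.01 and 9.10 at E11.5. Male arrays lay below all E11.5 arrays, and in females 1 array overlapped E11.5 replicate 4. The male difference was -1.27 ± 0.25 (SE, limma adjusted p = 1.96e-04). Ndufa9, an accessory subunit near the ubiquinone site of complex I, differed by -0.85 ± 0.14 in females and -0.99 ± 0.14 in males (SE, limma adjusted p = 5.77e-05 and 6.67e-06), without overlap. Ndufaf1, an assembly factor of the membrane arm, read 7.91, 7.91 and 8.31 in male PGC, against 9.73, 9.86, 9.41 and 9.24 at E11.5, a difference of -1.52 ± 0.16 (SE, limma adjusted p = 7.98e-08) with no overlap. A second, dimmer probe set of Ndufaf1 differed by 0.04 in females and -0.56 in males.

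Cycs, the mobile electron carrier between complexes III and IV, read 7.63, 7.58 and 7.28 in male PGC, against 7.89, 8.33, 8.04 and 8.03 at E11.5, and fell without overlap by 0.57 (SE 0.18, limma adjusted p = 0.0104). In females it read 7.84, 7.65 and 7.63, and the difference of -0.37 ± 0.18 did not pass (SE, limma adjusted p = 0.122). The other genes that fell in males alone were Atp5c1, Ndufaf4, Sdhd and Uqcrb.

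**Figure D4:**
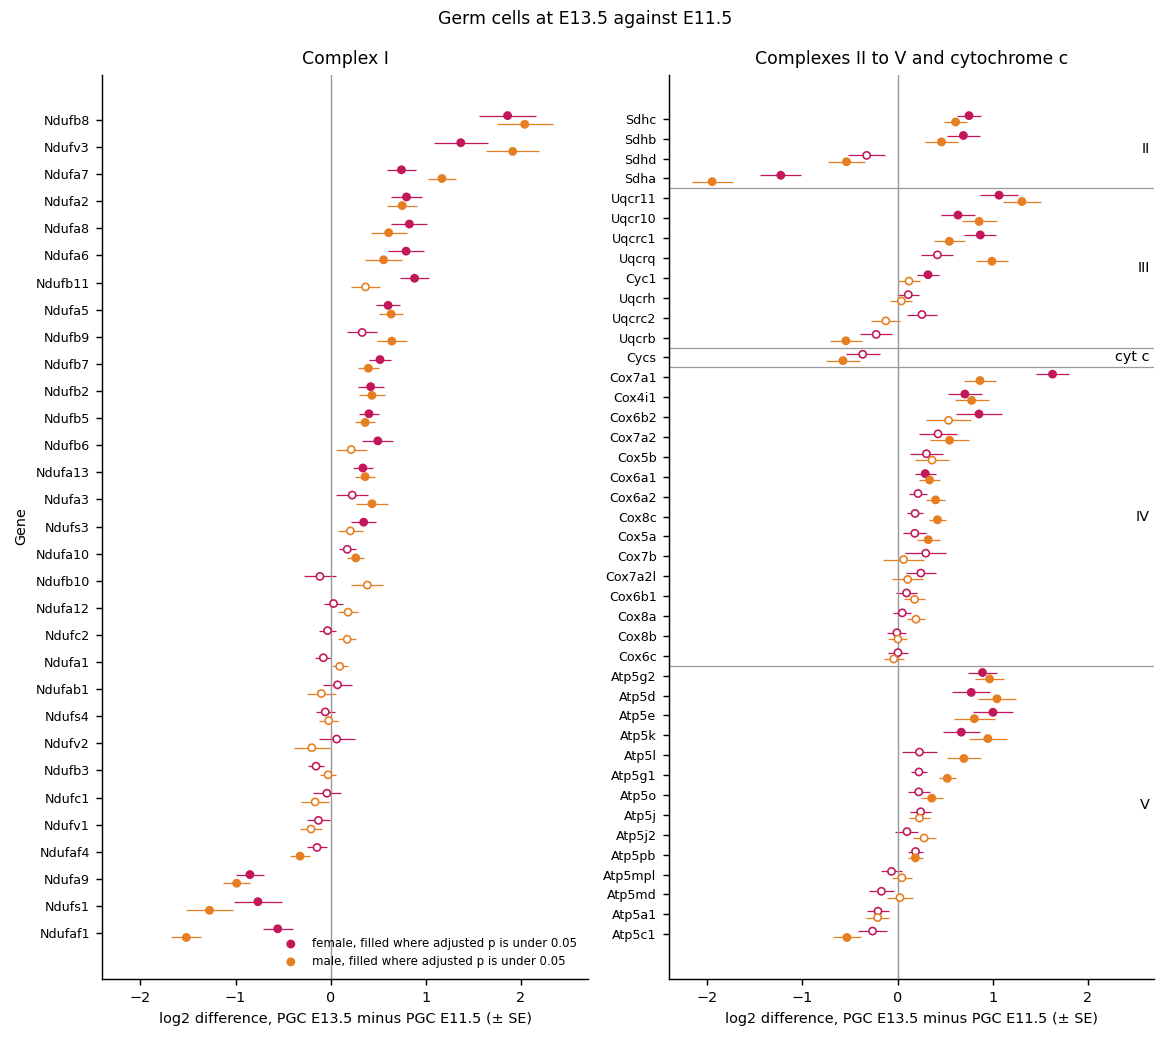
Difference of female (crimson) and male (orange) E13.5 PGC from E11.5 PGC for each of the 73 genes (log2 units, bars are SE), with filled points where the limma adjusted p was under 0.05. Ndufb8 lies highest at 1.86 in females and 2.04 in males, and Sdha lies lowest at -1.23 and -1.95.

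Single arrays within a group shifted in the same direction across these genes. PGC E11.5 replicate 4 was the highest of its 4 arrays for 21 of the 23 genes that rose in both sexes, with a median deviation of 0.28 from the group mean. MEF replicate 6 was the highest of its 6 arrays for 22 of the same 23, with a median deviation of 0.39. The 18S control probe set averaged 14.5 in female and 15.1 in male E13.5 PGC, against 12.9 at E11.5. Among the MEF arrays it was highest, at 14.8, on replicate 6. Among the E11.5 arrays it was highest on replicate 2, at 13.478, and read 13.205 on replicate 4. The median deviation of the same 23 genes on E11.5 replicate 2 was -0.08. The erythroid marker list read 7.71 to 7.92 in female and 7.91 to 8.11 in male E13.5 PGC, against 7.62, 6.88, 6.86 and 8.13 on E11.5 replicates 1 to 4, and the germ cell list read 8.47 on replicate 4 against 9.17 to 9.20 on the other E11.5 arrays. The actin 3′ minus 5′ difference, a measure of RNA or labelling quality, averaged 1.00 in female and 0.39 in male E13.5 PGC, against 0.95 at E11.5. On it the male arrays (0.21 to 0.51) did not overlap the E11.5 arrays (0.81 to 1.09). The same difference for Gapdh averaged 3.81 in female and 3.57 in male E13.5 PGC, against 3.48 at E11.5. On Gapdh the arrays of both sexes overlapped those of E11.5. The part of these controls and markers in the result was not tested. Without E11.5 replicate 4, 35 genes passed in females and 47 in males.

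Promoters of the 73 genes were read for 3 short motifs recognised by factors known to act on respiratory genes, namely NRF-1 (GCGCATGC), GABP (CCGGAAGT) and YY1 (AAGATGGC). Windows ran from 250 bases before to 50 after the RefSeq start on GRCm38.p6, both strands were searched, and 59 of the 73 genes matched an entry. The NRF-1 motif was found in 11 of 59 genes (18.6%), against 5.29% of the 6576 measured genes with an entry and 3.05% of all 27025. The YY1 motif was found in 8 (13.6%, against 4.61% of measured genes), and the GABP motif in 4 (6.78%, against 7.80%). Among genes with an entry, the NRF-1 motif was held by 8 of the 20 that rose in both sexes and by 0 of the 3 that fell in both. Genes holding it were called in both directions, as Cycs and Ndufaf4 hold it and fell in males. No difference between these sets was tested. Windows were not matched for base composition, and a motif match is no evidence of binding. In a run such as GCGCATGCGC the motif reads on both strands, and its matches overlap.

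Shown next are 220 bases of 6 promoters, 200 before the start and 20 after it, 5′ to 3′ on the gene's strand, from RefSeq (GRCm38.p6). The first 4 belong to genes that rose in both sexes and hold the NRF-1 motif, Cycs holds it and fell in males, and Sdha fell in both sexes and holds none of the 3 motifs here. Capitals mark motif matches on either strand (NRF-1 throughout, and in Uqcr11 also GABP).
Uqcr11, chr10:80406802-80407021, minus strand: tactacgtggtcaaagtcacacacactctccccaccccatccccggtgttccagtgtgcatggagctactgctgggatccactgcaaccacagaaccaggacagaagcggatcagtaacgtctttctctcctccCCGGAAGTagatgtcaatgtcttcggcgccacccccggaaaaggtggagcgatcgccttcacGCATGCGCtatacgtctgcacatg
Atp5g2, chr15:102671028-102671247, minus strand: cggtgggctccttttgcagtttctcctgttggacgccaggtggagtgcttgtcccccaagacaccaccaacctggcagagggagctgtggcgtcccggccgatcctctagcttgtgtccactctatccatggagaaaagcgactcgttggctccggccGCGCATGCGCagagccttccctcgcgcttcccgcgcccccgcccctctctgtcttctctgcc
Ndufa6, chr15:82354272-82354491, minus strand: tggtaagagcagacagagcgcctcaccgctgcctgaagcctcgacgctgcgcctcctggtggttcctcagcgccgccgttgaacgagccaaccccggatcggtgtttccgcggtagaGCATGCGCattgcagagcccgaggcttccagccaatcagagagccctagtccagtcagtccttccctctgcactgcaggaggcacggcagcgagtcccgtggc
Sdhb, chr4:140961071-140961290, plus strand: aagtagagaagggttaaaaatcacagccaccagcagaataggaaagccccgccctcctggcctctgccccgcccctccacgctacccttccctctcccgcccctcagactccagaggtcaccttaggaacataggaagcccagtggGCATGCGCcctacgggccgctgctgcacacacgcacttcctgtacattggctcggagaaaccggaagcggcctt
Cycs, chr6:50566550-50566769, minus strand: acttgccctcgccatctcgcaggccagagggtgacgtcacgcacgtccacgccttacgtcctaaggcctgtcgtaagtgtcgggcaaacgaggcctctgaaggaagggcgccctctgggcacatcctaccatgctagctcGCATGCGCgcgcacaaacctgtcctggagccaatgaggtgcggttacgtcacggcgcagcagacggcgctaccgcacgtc
Sdha, chr13:74350221-74350440, minus strand: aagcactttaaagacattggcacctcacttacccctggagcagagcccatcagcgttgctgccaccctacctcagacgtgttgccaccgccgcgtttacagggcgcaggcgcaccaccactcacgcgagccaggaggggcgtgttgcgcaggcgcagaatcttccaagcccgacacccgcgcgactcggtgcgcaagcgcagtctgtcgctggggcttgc
In Uqcr11 the NRF-1 match spans the start, in Atp5g2 it reads on both strands, and in Sdhb, Cycs and Ndufa6 it lies further upstream.

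Genes of neighbouring pathways were counted in the same comparisons, and their difference from the 73 genes was not tested. Of 17 measured genes of glycolysis, 3 rose and 7 fell in female E13.5 PGC and 2 rose and 8 fell in male E13.5 PGC. Pfkp, a phosphofructokinase, differed by -2.19 ± 0.27 in females and -2.02 ± 0.27 in males, and Hk2, a hexokinase, by -2.18 ± 0.30 and -1.81 ± 0.30 (SE, limma adjusted p at most 3.77e-05). Of 17 measured genes of the tricarboxylic acid cycle and pyruvate dehydrogenase, 5 rose and 4 fell in females, and 3 rose and 8 fell in males. Lrpprc, which stabilises mitochondrial transcripts, fell by 0.79 in females and by 1.31 in males. The adenine nucleotide carriers Slc25a4 and Slc25a5, which exchange ATP for ADP across the inner membrane, fell in both sexes, Slc25a4 by 0.81 and 0.63 and Slc25a5 by 0.79 and 0.65. Of the 14 measured carrier and uncoupling protein genes, 3 fell and 0 rose in females and 3 fell and 3 rose in males, among them Mpc1, a subunit of the pyruvate carrier, by 0.40 and the uncoupling protein gene Ucp1 by 0.32.

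Female and male E13.5 PGC were set against each other directly. Only 3 of the 73 genes were called higher in females (4.11%, against 6.29% of all genes) and 2 lower (2.74%, against 2.33%), and the median difference was -0.01 against -0.05 over all genes. Ndufaf1 read 9.09, 8.68 and 9.25 in females against 7.91, 7.91 and 8.31 in males, a difference of 0.96 ± 0.17 (SE, limma adjusted p = 4.15e-04). Cox7a1 differed by 0.76 ± 0.18 and Sdha by 0.72 ± 0.23 (SE, limma adjusted p = 7.94e-03 and 4.66e-02). None of these 3 overlapped between the sexes. Uqcrq, a small subunit of complex III, read 11.02, 11.22 and 10.64 in females against 11.54, 11.47 and 11.59 in males, a difference of -0.57 ± 0.18, and Atp5g1, an isoform of the c ring, differed by -0.30 ± 0.09 (SE, limma adjusted p = 4.46e-02 and 4.47e-02). After quantile normalization 3 were called higher and 5 lower, and without female replicate 1 only 1 of the 73 genes was called.

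The members on the X chromosome are Ndufa1 and Ndufb11 of complex I and Cox7b of complex IV. Ndufb11 read 11.05, 10.98 and 10.74 in female against 10.48, 10.37 and 10.38 in male E13.5 PGC, without overlap, but the difference of 0.52 ± 0.17 did not pass (SE, limma adjusted p = 0.0521). Cox7b differed by 0.23 ± 0.23 and Ndufa1 by -0.17 ± 0.09 (SE, limma adjusted p = 0.570 and 0.260). No X-linked member was called between the sexes.

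Embryonic germ cells are derived in culture from germ cells of E12.5 and were set against male E13.5 PGC, the nearest group of the same sex. In EGC 4 of the 73 genes were called higher (5.48%, against 14.8% of all genes) and 25 lower (34.2%, against 15.9%), with a median difference of -0.23 against -0.08 over all genes. After quantile normalization 4 were higher and 42 lower, with a median of -0.47 against -0.06 over all genes. The actin 3′ minus 5′ difference was 1.86 in EGC (1.72 to 1.99 over its arrays), against 0.39 in male E13.5 PGC (0.21 to 0.51). For Gapdh the 3′ minus 5′ difference went the other way, at 3.16 in EGC (3.07 to 3.23) and 3.57 in male E13.5 PGC (3.11 to 3.98), with overlap. The part of these controls in the gene differences was not tested. Genes called lower numbered 12 of 31 in complex I, 6 of 15 in complex IV, 6 of 14 in complex V and 1 of 8 in complex III, and none in complex II, where Sdha and Sdhd were higher.

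Cox7a1 read 4.40, 4.43 and 4.37 in EGC against 6.07, 6.15 and 6.01 in male E13.5 PGC, a difference of -1.68 ± 0.18 (SE, limma adjusted p = 6.29e-08). Ndufa6, an accessory subunit of complex I, read 6.83, 6.58 and 7.08 in EGC against 8.68, 8.62 and 8.20, a difference of -1.67 ± 0.20 (SE, limma adjusted p = 3.54e-07). Ndufv3 differed by -1.31 ± 0.30 and Ndufb2 by -1.21 ± 0.14 (SE, limma adjusted p = 1.27e-03 and 2.26e-07). No EGC array overlapped a male E13.5 array for these 4 genes. A second probe set of Ndufb6, Ndufb7, Ndufaf4 and Cox6b2 did not share the sign of the brighter one in this comparison.

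The 4 genes higher in EGC were Sdha, Sdhd, Ndufaf1 and Ndufaf4. Sdha read 7.36, 7.36 and 7.95 in EGC against 6.53, 6.43 and 6.04 in male E13.5 PGC (1.23 ± 0.23, SE, limma adjusted p = 1.34e-04). Sdhd read 11.37, 11.21 and 11.44 against 10.50, 10.28 and 10.01 (1.08 ± 0.21, SE, limma adjusted p = 2.23e-04). The assembly factors Ndufaf1 and Ndufaf4 differed by 0.72 ± 0.17 and 0.60 ± 0.11 (SE, limma adjusted p = 1.77e-03 and 1.23e-04), and none of the 4 overlapped. The comparison of male E13.5 with E11.5 PGC uses the same male arrays, so a low or high reading on them enters both with opposite sign.

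Glycolytic genes ran the other way in EGC: 12 of 17 were higher and 1 was lower, with a median difference of 1.24. Ldha, which converts pyruvate to lactate, averaged 13.9 in EGC and 9.51 in male E13.5 PGC (4.42 ± 0.18, SE, limma adjusted p = 5.42e-16). Hk2 differed by 3.12, the triose isomerase gene Tpi1 by 2.62 and the glucose transporter gene Slc2a1 by 2.60. Of the tricarboxylic acid cycle and pyruvate dehydrogenase genes 4 were higher, Pdha1 by 1.89 among them, and 5 were lower.

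**Figure D5:**
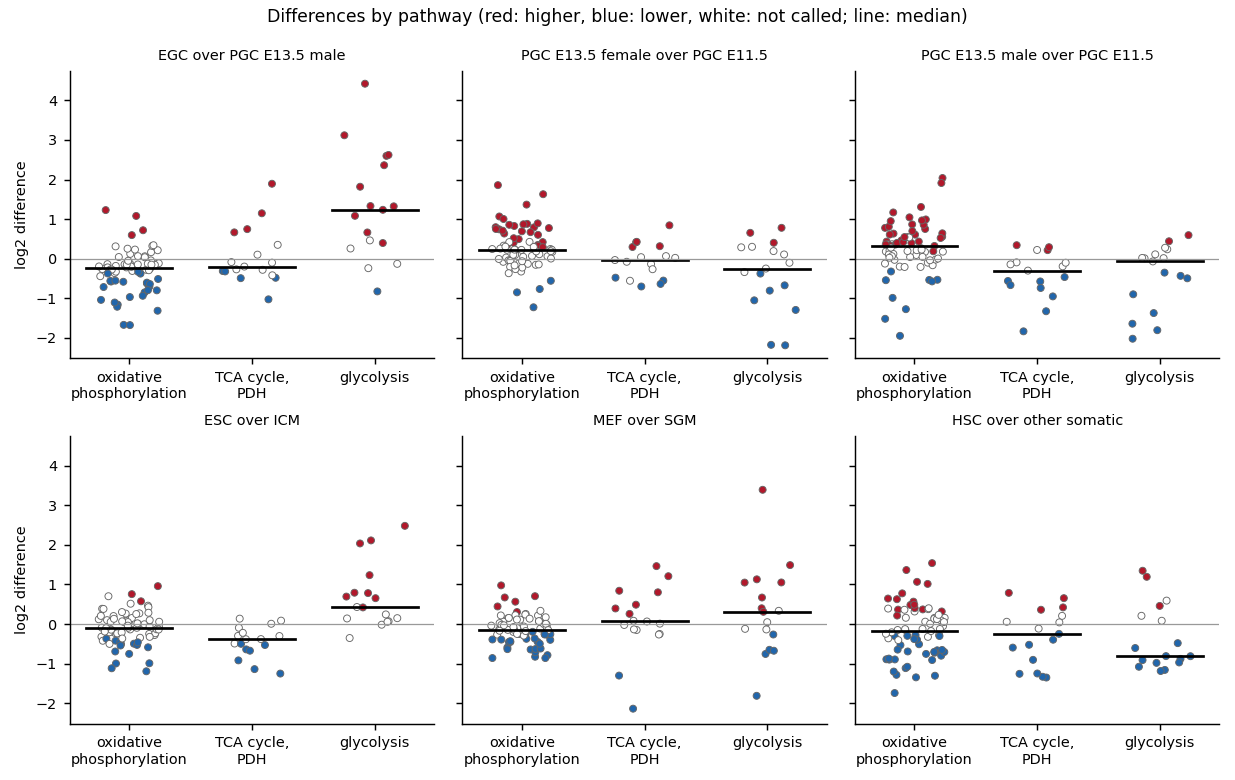
Differences (log2, y axis) of the 73 oxidative phosphorylation genes, 17 genes of the tricarboxylic acid (TCA) cycle and pyruvate dehydrogenase (PDH) and 17 glycolysis genes in 6 comparisons, where red and blue points passed the limma test and lines are medians. Glycolysis stands above 0 in EGC at a median of 1.24 and in ESC at 0.43, where the oxidative phosphorylation medians were -0.23 and -0.09.

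Embryonic stem cells were set against the inner cell mass, the tissue of the blastocyst from which such lines are derived. In ESC 3 of the 73 genes were called higher (4.11%, against 15.3% of all genes) and 15 lower (20.5%, against 12.6%), with a median of -0.09 against 0.04 over all genes. The lower genes included 10 of the 31 of complex I, 2 each of complexes III and V, and 1 of complex IV, and no gene of complex II was called. ICM arrays carried trophectoderm markers at 8.17 against 6.32 in ESC. Sex and strain also differed, as ESC were male and C57Bl/6, whereas ICM were of both sexes and came from crosses. The Gapdh 3′ minus 5′ difference was 2.46 to 2.84 over ESC arrays and 3.77 to 4.17 over ICM arrays, without overlap. For actin the arrays overlapped. The part of trophectoderm markers, sex, strain and these controls in the gene differences, which include the X-linked Ndufb11 and Cox7b, was not tested. With only these groups in the fit, 1 gene was called higher and 4 lower, and after quantile normalization 5 were higher and 7 lower. Without ESC replicate 1, which leaves 1 ESC array assumed to vary like the other groups, 10 genes were called in all.

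Ndufs3, a core subunit of the peripheral arm of complex I, read 10.53 and 10.48 in ESC against 11.61, 11.66 and 11.84 in ICM, a difference of -1.19 ± 0.15 (SE, limma adjusted p = 1.17e-06). Ndufs1 read 10.27 and 10.30 against 10.84, 11.61 and 11.77 (-1.12 ± 0.30, SE, limma adjusted p = 5.87e-03). Ndufb11, an X-linked accessory subunit, differed by -0.997 ± 0.19, and Uqcrc1, a core protein of complex III, by -0.99 ± 0.20 (SE, limma adjusted p = 2.12e-04 and 4.62e-04). The arrays did not overlap for any of the 4 genes, of which Ndufs3 had the tightest replicates.

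The 3 genes higher in ESC were Cox7b, Ndufaf4 and Cox8a. Cox7b, an X-linked subunit of complex IV, read 9.31 and 9.48 in ESC against 8.88, 8.69 and 7.74 in ICM (0.96 ± 0.26, SE, limma adjusted p = 6.66e-03). Ndufaf4 read 7.46 and 7.44 against 6.58, 6.64 and 6.87 (0.75 ± 0.12, SE, limma adjusted p = 3.96e-05), and Cox8a, the ubiquitous isoform of its subunit, differed by 0.57 ± 0.12. No array overlapped, and a second probe set of Ndufaf4 had the other sign. Glycolytic genes were higher for 9 of 17 and lower for none, led by Pfkp at 2.48 and Pgk1 at 2.11. Of the tricarboxylic acid cycle and pyruvate dehydrogenase genes 7 of 17 were lower and none was higher, with Dld, the dihydrolipoamide dehydrogenase gene, at -1.25 and Pdha1 at -1.14.

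E11.5 PGC were set against the somatic cells of the gonad and mesonephros sorted at the same age. In PGC 16 of the 73 genes were called higher (21.9%, against 23.2% of all genes) and 9 lower (12.3%, against 26.9%), and the median difference was 0.05 against -0.04. The share of higher genes was thus near that of all genes. With array weights, which down-weight arrays that deviate, 21 were higher and 18 lower.

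Cox7a1 had the widest difference, 2.57 ± 0.16 (SE, 5.96-fold, limma adjusted p = 1.43e-13). Within complex II the subunits parted again: Sdha was higher in PGC by 1.42 ± 0.20, whereas Sdhc and Sdhb were lower, at -1.13 ± 0.11 and -0.76 ± 0.16 (SE, limma adjusted p = 6.44e-07, 2.80e-09 and 1.78e-04). Sdhb read 9.70, 9.75, 9.68 and 10.22 in PGC against 10.75, 10.47, 10.55 and 10.59 in SGM, and Sdhc read 8.58, 8.51, 8.30 and 8.64 against 9.62, 9.57, 9.78 and 9.57. Both genes separated the groups on every array. Uqcrb, which sits near the ubiquinone site of complex III, differed by 1.26 ± 0.15 and Ndufa9 by 1.14 ± 0.13, while Atp5j, a subunit of the peripheral stalk of ATP synthase, differed by -0.71 ± 0.10 and Ndufa3 by -0.46 ± 0.15 (SE, limma adjusted p = 6.99e-08, 3.47e-08, 9.30e-07 and 1.29e-02). SGM arrays also carried erythroid markers at 11.0, against 7.37 in E11.5 PGC, and their part was not tested.

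Of 12 measured genes of mitochondrial biogenesis and DNA maintenance, 5 were higher in E11.5 PGC and 2 lower. Pprc1, a coactivator of respiratory genes, differed by 2.32 ± 0.15 and Lrpprc by 2.00 ± 0.19 (SE, limma adjusted p = 5.23e-13 and 6.34e-10). Of the measured assembly factor genes 7 of 12 were higher and 3 lower, and of the genes of the tricarboxylic acid cycle and pyruvate dehydrogenase 8 of 17 were higher and 2 lower. Of the 14 carrier and uncoupling protein genes 4 were higher and 5 lower, with a median difference of 0.01, and of the 17 glycolysis genes 4 were higher and 8 lower.

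Over all groups, the mean of the 6 pluripotent and germ cell groups was set against the mean of the 4 somatic groups. Of the 73 genes 28 were called higher (38.4%, against 29.1% of all genes) and 9 lower (12.3%, against 34.9%), with a median difference of 0.11 against -0.01. Differences were small next to the spread among groups: no member separated all 18 arrays of the first set from all 14 of the second in either direction, as 0.861% of all genes did upwards and 0.873% downwards. Without the NSC and HSC arrays 43 genes were higher (58.9%, against 35.9% of all genes) and 6 lower (8.22%, against 31.9%), with a median of 0.21. Without the MEF arrays 21 were higher (28.8%, against 28.3% of all genes) and 12 lower (16.4%, against 35.1%), with a median of 0.07, so the higher share was near that of all genes. Cox7a1 differed by 1.63 ± 0.09 (SE, limma adjusted p = 1.71e-15), and Cox7a2, its widely expressed paralogue, by 0.77 ± 0.10, while Cox7a2l, which joins complexes III and IV, differed by -0.60 ± 0.08 (SE) with NSC and HSC included and by 0.14 without them. Sdhc was lower, at -0.75 ± 0.06 (SE, limma adjusted p = 1.98e-11).

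Fibroblasts in culture were set against SGM. In MEF 6 of the 73 genes were called higher (8.22%, against 22.2% of all genes) and 25 lower (34.2%, against 27.6%), with a median of -0.15 against -0.05. Lower genes included 6 of the 8 of complex III, 7 of the 14 of complex V and 8 of the 31 of complex I. With arrays centred on their median 9 were higher and 16 lower. The erythroid list averaged 6.61 in MEF against 11.0 in SGM and the fibroblast list 12.9 against 11.8, and their part in these differences was not tested.

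Atp5g2, an isoform of the c ring, had a lowest, median and highest value of 9.11, 9.22 and 9.60 in MEF, against 10.29, 9.97, 10.05 and 10.20 in SGM, a difference of -0.86 ± 0.13 (SE, limma adjusted p = 3.18e-06). The groups did not overlap on this probe set, while a dimmer one differed by 0.11. Cox7a2, Ndufb5 and Sdhb differed by -0.86 ± 0.17, -0.83 ± 0.09 and -0.71 ± 0.14 (SE, limma adjusted p = 1.10e-04, 6.26e-09 and 1.19e-04). Sdha, Uqcrb and Ndufa9 were higher, at 0.98 ± 0.18, 0.70 ± 0.14 and 0.44 ± 0.12 (SE, limma adjusted p = 4.48e-05, 1.15e-04 and 3.24e-03). Sdha read 7.56, 7.78 and 8.15 as lowest, median and highest in MEF, against 6.62, 7.28, 6.81 and 6.71 in SGM, with no overlap.

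Haematopoietic stem cells were set against the mean of NSC, MEF and SGM. In HSC 15 of the 73 genes were called higher (20.5%, against 36.8% of all genes) and 29 lower (39.7%, against 27.6%), with a median of -0.18 against 0.08. All 4 genes of complex II, 7 of 14 of complex V and 11 of 31 of complex I were lower, while 1 of complex V and 6 of complex I were higher. In complex III 4 of 8 were higher and 2 lower, and in complex IV 4 of 15 were higher and 4 lower. Because NSC arrays share the control pattern of HSC, each was also used separately: against NSC alone 6 were higher (8.22%, against 29.2% of all genes) and 38 lower (52.1%, against 24.5%), with a median of -0.38. Against MEF and SGM 19 were higher (26.0%, against 39.6%) and 22 lower (30.1%, against 29.7%), with a median of -0.06. The pattern by complex depends on the grouping: Cyc1 of complex III differed by -0.90 against NSC alone, and Sdhb of complex II by 0.02 against MEF and SGM. With arrays centred on their median, which shifts the median of all genes by -0.11, 10 were higher and 35 lower, and after quantile normalization 23 were higher and 23 lower. The median was -0.06 without HSC replicate 1 and -0.31 without HSC replicate 2.

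Ndufb6 read 8.17 and 8.65 in HSC, against a lowest, median and highest of 9.79, 10.17 and 10.54 in the other somatic arrays, a difference of -1.74 ± 0.17 (SE, 3.35-fold, limma adjusted p = 4.83e-10). A second, much dimmer probe set of Ndufb6 differed by 0.34. In this comparison 9 called genes have several probe sets, and all sets of a gene shared a sign for 4 of them. Ndufs3 read 9.47 and 9.52 in HSC, against 10.10, 10.74 and 11.42, and Atp5o, which links the F1 part to the stalk, read 9.21 on both arrays, against 9.75, 10.34 and 10.80. Their differences were -1.31 ± 0.13 and -1.20 ± 0.12 (SE, limma adjusted p = 1.44e-09 and 1.10e-09). Neither gene overlapped the other somatic cells, nor did Sdhd, at -1.28 ± 0.20 (SE, limma adjusted p = 2.88e-06). Against NSC alone these 4 genes differed by -1.83, -1.72, -1.59 and -1.43 (limma adjusted p at most 3.59e-05), and against MEF and SGM by -1.70, -1.10, -1.01 and -1.21 (limma adjusted p at most 5.59e-06).

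Cox7a2l read 11.31 and 11.62 in HSC, against a lowest, median and highest of 9.27, 9.65 and 10.76 in the other somatic arrays, a difference of 1.54 ± 0.16 (SE, 2.90-fold, limma adjusted p = 4.75e-09). Cox7a1 differed by 1.36 ± 0.18, Ndufa6 by 1.01 ± 0.19 and Ndufb8 by 0.77 ± 0.30 (SE, limma adjusted p = 1.39e-07, 5.61e-05 and 2.65e-02). HSC values lay above all other somatic values for these genes, but against NSC alone Cox7a1 differed by 0.14 and Ndufb8 by 0.28, which did not pass (limma adjusted p = 0.623 and 0.560). Cox7a2l and Ndufa6 differed from NSC alone by 0.83 and 0.77 (limma adjusted p = 1.73e-03 and 1.19e-02). Against MEF and SGM the 4 genes differed by 1.89, 1.98, 1.14 and 1.02 (Cox7a2l, Cox7a1, Ndufa6 and Ndufb8, limma adjusted p at most 3.96e-03). Glycolytic genes were lower for 11 of 17 and higher for 3 in HSC, with a median of -0.81 (-0.10 against NSC alone and -0.57 against MEF and SGM), and the carriers Slc25a4 and Vdac3 (a pore of the outer membrane) had differences of -1.93 and -1.77.

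Isoform pairs of complex IV and of the c ring differed in how they varied. Cox6a1, the widely expressed form, rose in both sexes at E13.5 (0.29 ± 0.11 in females, 0.34 ± 0.11 in males, SE), while Cox6a2, the muscle form, rose in males alone (0.40 ± 0.10, SE) and stayed between 6.84 and 7.42 in all groups. Cox6b2, known from testis, averaged 8.55 ± 0.38 in female E13.5 PGC (SD, n = 3), 8.23 ± 0.14 in male E13.5 PGC (SD, n = 3) and 7.69 ± 0.47 in E11.5 PGC (SD, n = 4), and its rise was called in females alone, at 0.86 ± 0.24 (SE, limma adjusted p = 0.00671). A second probe set of Cox6b2 differed by -0.24 in that comparison. In somatic cells Cox6b2 averaged 8.49 in HSC, 7.81 in MEF, 7.47 in SGM and 6.98 in NSC. On this brightest probe set the HSC level thus lay within the range of the PGC groups. Between HSC and the other somatic groups its probe sets differed by 1.07, 0.32 and -0.34, from brightest to dimmest. Cox6b1 stayed between 7.23 and 7.65 and was called in no comparison. Cox8b, a muscle form, stayed between 8.56 and 8.80 and was called only as higher in the pluripotent and germ cell groups, and Cox8c, a testis form, rose in male E13.5 PGC by 0.42 ± 0.09 (SE). Of the c ring genes Atp5g2 rose in both sexes (0.89 ± 0.16 and 0.97 ± 0.16, SE), and Atp5g1 rose in males (0.52 ± 0.09, SE). Cox4i1, the widely expressed form of its subunit, rose by 0.71 ± 0.18 in females and 0.78 ± 0.18 in males (SE). A second probe set of Cox4i1, nearly as bright, differed by only 0.10 in females and 0.22 in males. A dimmer probe set of Atp5g2 differed by 0.12 and 0.42.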

How the data were processed

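Expression was measured on Affymetrix MG-U74Av2 arrays. The authors deposited log2 values normalized by RMA, per the submitters' processing notes, in a table of 34 columns. 2 of these equal the means of other columns and were left out, and 32 arrays in 10 groups were used. Of 12488 probe sets, 10833 carry 1 gene symbol, 396 several, 1193 none and 66 are controls. The brightest probe set stood for each of 8251 genes. 13 probe sets exceed the scanner ceiling of log2 16.

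One linear model with a coefficient per group was fitted to all genes with limma 3.58.1 in R 4.3.3, and p-values were adjusted by Benjamini-Hochberg over all genes with a threshold of 0.05. The step was tested on simulated data. The members and lists were chosen with earlier results of these data known. Up to 4 called rises and falls per comparison were named, the largest among genes whose arrays did not overlap, with the 6 widest-ranging genes, complex II, cytochrome c, paralogue sets and X-linked genes. Correlations of same-numbered arrays' deviations from their group means took both signs, so replicate numbers were not used as pairs. Arrays give no read depth, and their number limits the precision. Alternatives covered normalization, filters, probe sets, groups in the fit, array weights and left-out arrays.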

Additional observations from a re-analysis of the deposited data

Results flagged for a closer look

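PGC E11.5 replicate 4 stood far from the other 3 arrays of its group for 2 members. Sdhb read 10.22 there, against 9.68 to 9.75 on the others, and Ndufs1 read 9.10, against 9.93 to 10.04. Chance flags about 1 in 20 such checks, and 69 were made.

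For 5 members the change from E11.5 to E13.5 differed between female and male PGC by a test of the difference itself. The E11.5 arrays are shared and cancel, so this is the direct comparison of the sexes. The female minus male difference was 0.96 for Ndufaf1, 0.72 for Sdha, 0.76 for Cox7a1, -0.57 for Uqcrq and -0.30 for Atp5g1.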

How the results depend on the processing

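Of 5046 values of named members under the alternatives, 4724 stayed on their side of the threshold, 190 no longer passed it and 118 newly passed it. A further 14 turned direction and passed in the main or the alternative fit. Values that changed sign but passed in neither fit are counted among the 4724. The causes were not tested. With array weights 39 members were called between E11.5 PGC and SGM and 9 between the E13.5 sexes. Fitting the compared groups alone, 5 were called between ESC and ICM and 3 between the sexes. Quantile normalization gave 8 calls between the sexes and 46 between EGC and male E13.5 PGC, and medians of 0.45 (female) and 0.54 (male) for E13.5 against E11.5, -0.47 for EGC and 0.0295 for HSC. The HSC median was -0.0682 with the mean of a gene's probe sets and -0.28 with centred arrays. Chosen after seeing the data, HSC over NSC alone gave -0.38 and HSC over SGM and MEF gave -0.0588. Levels and ranges without NSC and HSC were also chosen after seeing the data.

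The values that turned direction and passed in the main or the alternative fit were these. Under groupings also chosen after seeing the data, pluripotent over somatic without NSC and HSC gave 0.14 for Cox7a2l, 0.13 for Cox8a, 0.76 for Ndufaf4, 0.42 for Ndufb8 and -0.24 for Sdhd, and without MEF it gave -0.22 for Cyc1. With plain probe sets, Atp5g1 gave 0.37 in ESC over ICM and Atp5g2 gave 0.11 in MEF over SGM and 0.25 in HSC. Quantile normalization gave -0.38 for Cox6a1 in MEF over SGM. In HSC, the mean of probe sets gave -0.0843 for Ndufa1, the comparison with NSC gave -0.90 for Cyc1 and -0.81 for Ndufaf4, and that with SGM and MEF gave 0.0223 for Sdhb.

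With single arrays left out, calls ranged from 33 to 39 for pluripotent over somatic, 22 to 29 for E11.5 PGC over SGM, 10 to 20 for ESC over ICM, 22 to 35 for female and 37 to 47 for male E13.5 PGC over E11.5, 1 to 4 between the sexes, 24 to 29 for EGC, 27 to 34 for MEF and 35 to 46 for HSC. The HSC median ranged from -0.307 to -0.0601.

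With the replicate number as a replicate block, calls numbered 41 for pluripotent over somatic, 27 for E11.5 PGC over SGM, 21 for ESC over ICM, 35 for female and 47 for male E13.5 PGC, 6 between the sexes, 29 for EGC, 30 for MEF and 48 for HSC, each within 1.5 times the count without it.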
